A study of Mus musculus with 4 samples.

Results

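The peaks described here are promoter peaks that belong to 1 protein-coding gene each and that were listed at both stages of a mouse limb series. A peak was taken when it lay on an autosome in the E10.5 list, had at least 1 base within 1 kb of the transcription start site of exactly 1 protein-coding gene, and shared at least 1 bp with a peak of the E11.5 list. This rule found 10342 peaks, next to 10071 genes, among 97739 autosomal peaks of the E10.5 list and 136975 peaks in both lists together. The members were chosen by their presence and position in both peak lists, so the overlap itself is a description and no finding.

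The 4 samples were cells of fore- and hindlimbs in 1 sample, from mouse embryos labelled Wild Type, 2 replicates of the stage E10.5 and 2 of E11.5 (E for embryonic day), and no edited or mutant limb was among them. The titles name the earlier stage E10.5 while the treatment protocol calls it E10, and the titles were followed. Accessibility was measured by ATAC-seq, in which the Tn5 transposase inserts sequencing adaptors into exposed DNA of fixed, lysed cells. Each stage had 1 deposited peak list made from both of its replicates, so the values below carry no spread between replicates, no test between stages was possible, and the depth of the libraries is unknown. Peaks numbered 99427 at the earlier stage and 37548 at the later one. In whole limb tissue, fewer cells with an accessible promoter and less signal per cell cannot be told apart.

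A promoter is the stretch around a gene's start where general transcription factors and RNA polymerase assemble, and it is usually free of nucleosomes in cells that can use the gene. Many mammalian promoters lie in CpG islands, which stay accessible in most tissues, whether or not the gene is strongly transcribed. Developmental regulators such as the Hox genes often sit in unusually long CpG-rich accessible domains that reach well beyond the core promoter. The measure used here is the authors' signal value of a peak, a total over its length. For a comparison between lists of unequal length, the members alone were ranked by signal in each list, from 0 for the lowest to 100 for the highest, and the difference is given as E11.5 minus E10.5 in points. A difference of at least 25 points in either direction was counted. Where several E11.5 peaks overlapped 1 member, the one with the highest signal was used, and where a gene had several members, its strongest E10.5 peak was used for gene counts.

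The promoter sequences below belong to members picked for their ranks, and are examples only. They come from RefSeq, build GRCm38.p6, which shares its coordinates with mm10, and run 5′ to 3′ from 250 bases before to 50 bases after a start. Only entries whose start lies inside the E10.5 peak were taken. Capitals mark exact matches, on either strand, of 9 short motifs: GGGCGG of Sp and KLF factors, CCGGAAG of ETS factors, CCAAT of the factor NF-Y, TATAAA of the box bound by TBP, TGACGT of the cyclic AMP response element (CRE), GCATGCG of the factor NRF1, AAGATGG of the factor YY1, CACGTG of the E box family and TCTCGCG of the Kaiso-type element. No motif contains another, but neighbouring matches of one motif can overlap. The first 3 belong to the genes that ranked lowest in the E11.5 list relative to the E10.5 list: Hoxa11 (chr6:52245761-52246060, minus strand), a homeobox factor that patterns the zeugopod, Lmx1b (chr2:33641049-33641348, minus strand), the LIM-homeobox factor of dorsal limb identity, and Hoxd12 (chr2:74674763-74675062, plus strand), a distal limb Hox gene.
Hoxa11: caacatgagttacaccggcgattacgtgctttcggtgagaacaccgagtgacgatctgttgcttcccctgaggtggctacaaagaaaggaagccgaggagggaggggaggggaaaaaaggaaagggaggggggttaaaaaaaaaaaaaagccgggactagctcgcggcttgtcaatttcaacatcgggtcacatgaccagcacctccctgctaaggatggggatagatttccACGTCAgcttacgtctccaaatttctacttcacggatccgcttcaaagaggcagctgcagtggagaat
Lmx1b: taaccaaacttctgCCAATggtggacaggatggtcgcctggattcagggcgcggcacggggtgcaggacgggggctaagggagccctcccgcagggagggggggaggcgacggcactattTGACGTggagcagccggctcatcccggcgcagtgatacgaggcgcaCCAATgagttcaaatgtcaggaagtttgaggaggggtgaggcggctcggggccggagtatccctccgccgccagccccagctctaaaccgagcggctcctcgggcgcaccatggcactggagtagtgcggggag
Hoxd12: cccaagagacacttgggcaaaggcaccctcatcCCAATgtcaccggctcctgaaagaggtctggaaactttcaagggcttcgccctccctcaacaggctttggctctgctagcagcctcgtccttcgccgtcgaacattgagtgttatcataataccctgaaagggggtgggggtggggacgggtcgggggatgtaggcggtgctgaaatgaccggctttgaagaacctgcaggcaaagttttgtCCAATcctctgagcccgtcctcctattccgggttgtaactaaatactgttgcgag

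The next 3 show the opposite difference: Gm3248 (chr14:5961638-5961937, minus strand), a predicted gene, Zfp982 (chr4:147442864-147443163, plus strand), a zinc finger gene, and Rps23 (chr13:90922872-90923171, plus strand), a protein of the small ribosomal subunit.
Gm3248: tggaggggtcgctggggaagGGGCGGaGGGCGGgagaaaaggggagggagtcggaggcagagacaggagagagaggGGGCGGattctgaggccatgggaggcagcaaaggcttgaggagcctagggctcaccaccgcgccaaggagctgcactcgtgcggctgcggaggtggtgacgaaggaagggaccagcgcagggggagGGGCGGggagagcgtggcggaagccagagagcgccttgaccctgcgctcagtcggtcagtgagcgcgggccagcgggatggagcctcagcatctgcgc
Zfp982: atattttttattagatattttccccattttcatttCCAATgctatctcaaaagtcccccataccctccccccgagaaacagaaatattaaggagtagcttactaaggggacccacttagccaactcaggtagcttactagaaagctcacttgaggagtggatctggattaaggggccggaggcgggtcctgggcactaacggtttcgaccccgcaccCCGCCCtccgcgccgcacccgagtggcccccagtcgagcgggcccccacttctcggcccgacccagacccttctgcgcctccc
Rps23: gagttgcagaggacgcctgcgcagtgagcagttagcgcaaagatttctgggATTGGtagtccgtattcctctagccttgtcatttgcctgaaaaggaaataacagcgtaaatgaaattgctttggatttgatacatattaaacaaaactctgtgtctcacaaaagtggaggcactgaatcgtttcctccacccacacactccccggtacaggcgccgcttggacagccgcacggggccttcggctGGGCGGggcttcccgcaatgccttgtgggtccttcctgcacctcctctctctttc

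The last pair ranked near the top of both lists: Ing1 (chr8:11555512-11555811, plus strand), a chromatin reader of the ING family, and Sox12 (chr2:152397997-152398296, minus strand), an HMG-box transcription factor.
Ing1: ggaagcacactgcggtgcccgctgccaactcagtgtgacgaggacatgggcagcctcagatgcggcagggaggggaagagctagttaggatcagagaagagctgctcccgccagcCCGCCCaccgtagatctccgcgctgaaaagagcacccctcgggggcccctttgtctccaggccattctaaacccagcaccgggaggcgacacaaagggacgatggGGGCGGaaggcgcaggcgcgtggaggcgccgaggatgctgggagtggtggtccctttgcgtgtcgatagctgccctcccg
Sox12: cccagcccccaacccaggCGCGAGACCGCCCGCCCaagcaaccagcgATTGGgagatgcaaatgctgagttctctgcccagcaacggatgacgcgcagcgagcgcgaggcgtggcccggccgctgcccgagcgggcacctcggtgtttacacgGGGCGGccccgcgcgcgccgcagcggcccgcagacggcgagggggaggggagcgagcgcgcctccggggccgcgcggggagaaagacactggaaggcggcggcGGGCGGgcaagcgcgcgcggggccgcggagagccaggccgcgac

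Among the 8 promoters, none held the ETS or the TATA motif, the 3 in the first group had no GGGCGG match, and the 5 in the other groups had 1 to 4 each. The CpG observed/expected ratio was 0.57 for Hoxd12, 0.79 for Hoxa11 and 1.07 for Sox12. The start given in the table for Hoxa11 and for Hoxd12 lay in the E10.5 peak but outside the E11.5 peak that stood for it, whereas the Lmx1b start lay in both. These are single sequences picked by rank, and a missing match says only that the letters are not in this window. Among all member genes with a sequence, GGGCGG was in 69.5% of those that ranked at least 25 points higher. It was in 67.6% of those within 25 points. For genes that ranked lower too few had a sequence for a share to be given. The contrast between these examples therefore cannot be carried over to the groups.

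Promoter peaks of 1 gene overlapped E11.5 peaks more often than peaks away from starts, and less often than peaks near several starts. Of 12220 promoter peaks of 1 gene in the E10.5 list, 84.6% overlapped an E11.5 peak (95% Wilson interval 84.0 to 85.3%). The shares were 96.8% of 1327 peaks near 2 or more gene starts (95.7 to 97.6%) and 23.3% of 84192 peaks away from starts (23.04 to 23.6%). The intervals cover counting error only and treat neighbouring peaks as independent. The same overlap chose the members, and the part of peak width and signal in these shares was not tested. The members made up 33.1% of the 31262 autosomal E10.5 peaks that overlapped an E11.5 peak. Their 10071 genes were 49.5% of 20364 autosomal protein-coding genes with a known strand, and 259 of them had more than 1 member peak. The gene's own start lay inside the peak in 89.7% of members. Counted per 100 genes, members ran from 37.2 on chromosome 7 to 61.6 on chromosome 18.

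Membership changes at its edges with a few bases. Just inside the 1 kb distance lay peaks of Prkar1a at 998 bp, Letmd1 at 995 bp and Nkx2-4 at 994 bp from the start. Just outside it, peaks shared with the E11.5 list lay 1003 bp from Ajm1 and 1003 bp from S100a7a. The smallest accepted overlaps were 14 bp at Tmem184a, 21 bp at Ctdsp1 and 37 bp at Tbc1d32. The nearest E11.5 peaks that missed lay 9 bp from the E10.5 peak at Crebzf, 9 bp at Glrx and 12 bp at Pappa.

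Member peaks were wide and stood near the top of the E10.5 list. Their median width was 1530 bp in the E10.5 list (quartiles 1134 and 2075 bp) and 1179 bp in the E11.5 list (853 and 1563 bp). The E10.5 peak was the wider one for 83.7% of members (95% Wilson interval 83.0 to 84.4%), and the median ratio of widths was 0.79, or 0.81 over the 9319 members with 1 peak overlapping 1 peak. Members wider than 4000 bp numbered 287 in the E10.5 list and 36 in the E11.5 list. Promoters of 2 or more genes narrowed less between the lists, from a median of 1626 to 1400 bp, and shared peaks away from starts narrowed more, from 963 to 443 bp. For promoter peaks of 1 gene with no E11.5 overlap the median width was 614 bp. Why widths differed between the lists was not tested, and library depth, which is unknown, cannot be told apart from stage.

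**Figure D1:**
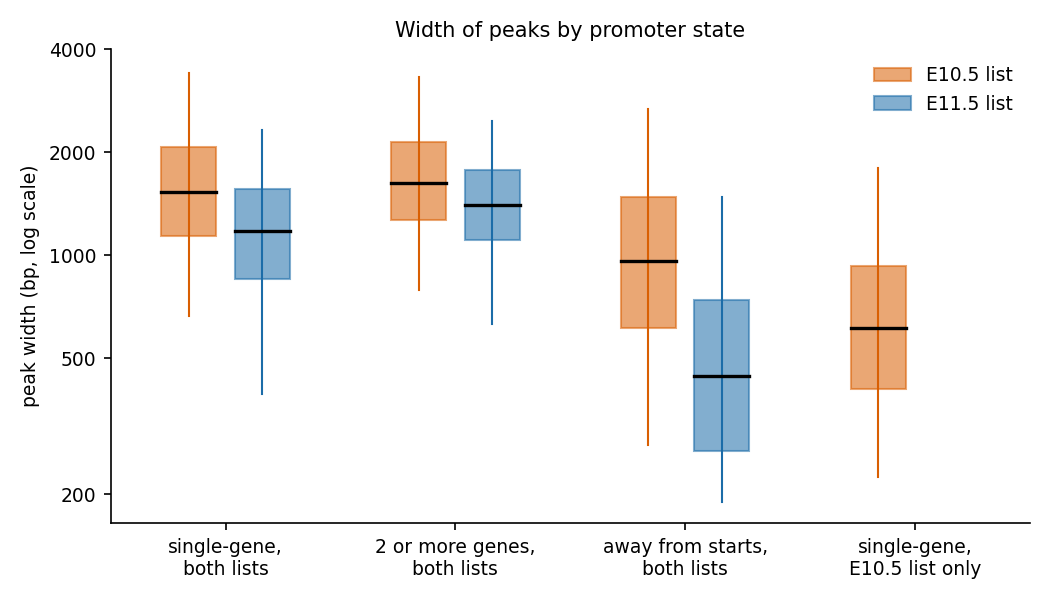
Peak width in bp on a log scale for 4 kinds of autosomal E10.5 peak, in the E10.5 list (orange) and in the E11.5 list (blue, the overlapping peak with the highest signal). Boxes span the quartiles, black bars mark the median and lines run from the 5th to the 95th percentile, and single-gene promoters in both lists have medians of 1530 and 1179 bp.

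Signal followed width. The median signal of members was 4847 in the E10.5 list and 2841 in the E11.5 list, and the medians per bp were 3.11 and 2.35. Within a list, Spearman's rho between signal and width across members was 0.83 in the earlier list and 0.85 in the later, a description across peaks that are not independent replicates. In the whole E10.5 list the median member stood at percentile 89.7, and 48.9% of members were in its top decile, where they formed 51.7% of the peaks. In the whole E11.5 list the median member stood at percentile 79.8 and 24.9% were in the top decile. Because the E11.5 list is shorter and was called separately, these list percentiles show standing within each list and no change. Promoter peaks of 1 gene found in the E10.5 list only stood at a median percentile of 40.2, with a median −log10 p of 4.64 beside 10.3 for the members.

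Summits clustered around the start site in both lists, with a wide spread. The median summit was 23 bp downstream of the start in the E10.5 list and 15 bp downstream in the E11.5 list. It lay within 200 bp of the start for 62.7% and 66.2% of members, and a shoulder of summits extended further downstream. The summits of both lists were within 50 bp of each other for 65.4% of members and within 200 bp for 85.1%, with a median distance of 23 bp. Thus the position of the maximum differed little between the lists for most members, while the extent of the peak differed more.

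**Figure D2:**
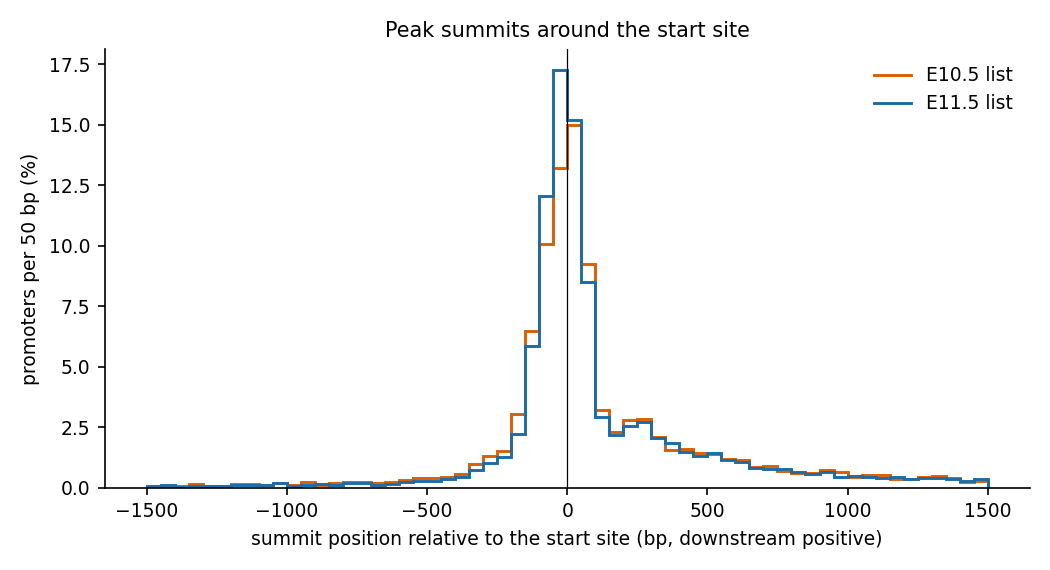
Share of the 10342 member promoters per 50 bp of summit position, in bp from the gene's start with downstream positive, for the E10.5 list (orange) and the E11.5 list (blue). Both curves peak at the start, with medians 23 and 15 bp downstream, and both have a longer tail on the downstream side.

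The order of the members was broadly kept between the lists. Across the 10342 members, Spearman's rho of signal between the lists was 0.72, and 0.78 for the 9319 with 1 peak overlapping 1 peak. The median absolute rank difference was 11.6 points, and 45.1% of members differed by less than 10 points. In the E11.5 list 973 members ranked higher by at least 25 points, which is 9.41 percent called, and 1137 ranked lower, which is 11 percent called. Counted once per gene, 899 genes ranked higher (8.93 percent) and 1128 ranked lower (11.2 percent). These gene shares are the background for each class below. Ranked among all 31262 shared autosomal peaks instead, 12.5% of members stood higher and 4.05% lower, beside 10.4% and 12.6% of all those peaks.

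Rank differences went with differences in how the peaks were drawn. Members that ranked lower in the E11.5 list had a median width of 2472 bp in the E10.5 list and 1071 bp in the E11.5 list, with median signals of 7124 and 1673. Members that ranked higher had median widths of 1220 and 1343 bp and median signals of 3625 and 4101. Of the lower group, 34.0% overlapped several E11.5 peaks, compared with 5.45% of members that differed by less than 25 points and 1.13% of the higher group. Of the higher group, 11.7% shared their E11.5 peak with another E10.5 peak, compared with 0.887% of members that differed by less than 25 points. Some values below are therefore also given after joining all peaks of both lists that overlap each other and summing their signals. With joined peaks 8.48 percent of genes ranked higher and 10.2 percent lower. Among genes with 1 peak on 1 peak the shares were 7.94 and 9.24 percent, and on signal per bp 11.2 and 11.9 percent.

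By total signal, most member genes of a written limb list ranked at least 25 points lower in the E11.5 list. The class is a list of 84 limb patterning genes, written by hand with earlier results of these data known. Of the 84, 83 were autosomal and protein-coding with a known strand. Of these, 66 had a member promoter, 5 shared their promoter peak with a second gene, 9 had a promoter peak in the E10.5 list only and 3 had none in the E10.5 list. The median member of the class ranked at 85.7 in the E10.5 list and at 41.0 in the E11.5 list, and the median width was 3267 and 1479 bp. Of the 66 genes, 38 ranked lower by at least 25 points (57.6%, Wilson interval 45.6 to 68.8%), none ranked higher by that much, and 28 lay within 25 points. The median difference was −29.2 points, beside +1.3 over all member genes. With joined peaks 48.5% ranked lower, and on signal per bp 27.3% did, beside 10.2 and 11.9 percent of all genes.

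The distal Hox genes, which specify the segments of the limb from upper arm to digits, showed wide gaps. Hoxa11 had a signal of 38499 over 12173 bp in the E10.5 list and 546 over 564 bp in the E11.5 list, a difference of −91.9 points, or −81.6 with its 3 E11.5 peaks joined. Hoxd12 had 15766 and 564, Hoxa13 had 11162 and 1209, and Hoxc11 had 8144 and 312. Hoxa10, Hoxa9, Hoxc10, Hoxd9 and Hoxd13 also ranked lower, between −50.9 points for Hoxd13 and −69.7 points for Hoxa10. The E11.5 value is that of the strongest overlapping peak, and Hoxd12 had 1608 with its 3 E11.5 peaks joined. The lists were called separately at unknown depth, so their signals give no fold difference. The median member had 4847 and 2841. Hoxd10 and Hoxd11 were not members because their promoter peaks lay near a second gene.

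Transcription factors of limb identity and outgrowth showed both patterns. Lmx1b, which makes the limb dorsal, had a signal of 22123 in the E10.5 list and 633 in the E11.5 list. Tbx4, a hindlimb factor, had 5248 and 745, and Tbx2 and Tbx3, which act in digit identity, had 15899 and 1783 and 10275 and 2503. Msx1, a homeobox factor downstream of BMP signalling, had 16489 and 2317, and Snai1, a zinc finger repressor of epithelial genes, had 15842 and 1718. By contrast Gli3, the transcription factor that restrains Hedgehog targets, ranked at 98.1 and 99.1, and Twist1, a mesenchymal bHLH factor, at 88.2 and 90.03. Isl1, a LIM-homeobox factor of the early hindlimb field, ranked at 55.3 and 68.0.

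Signalling genes of the bud were likewise divided. Fgf10, the mesenchymal ligand that keeps the apical ridge active, had a signal of 10791 in the E10.5 list and 8720 in the E11.5 list and ranked at 92.0 and 97.4. Dusp6, a phosphatase induced by FGF signalling, ranked at 99.5 and 99.3, and Etv5, an ETS factor induced by FGF, at 98.1 and 95.04. Grem1, a secreted BMP antagonist, ranked at 84.4 and 78.9. Wnt5a, a ligand of limb elongation, had 28124 and 1978, a difference of −65.8 points that shrank to −24.9 with its 4 E11.5 peaks joined. Bmp7 had 30526 and 4054 (ranks 99.9 and 69.9, a gap of −10.5 points joined), while Bmp4 had 4809 and 1099 (−31.5, or −31.9 joined). Shh, expressed in a small posterior domain, ranked at 1.8 and 0.8 with signals of 649 and 228. En1, the ventral ectoderm factor of the series title, ranked at 15.3 and 18.1 with signals of 2291 and 1122 and widths of 1339 and 1328 bp.

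**Figure D3:**
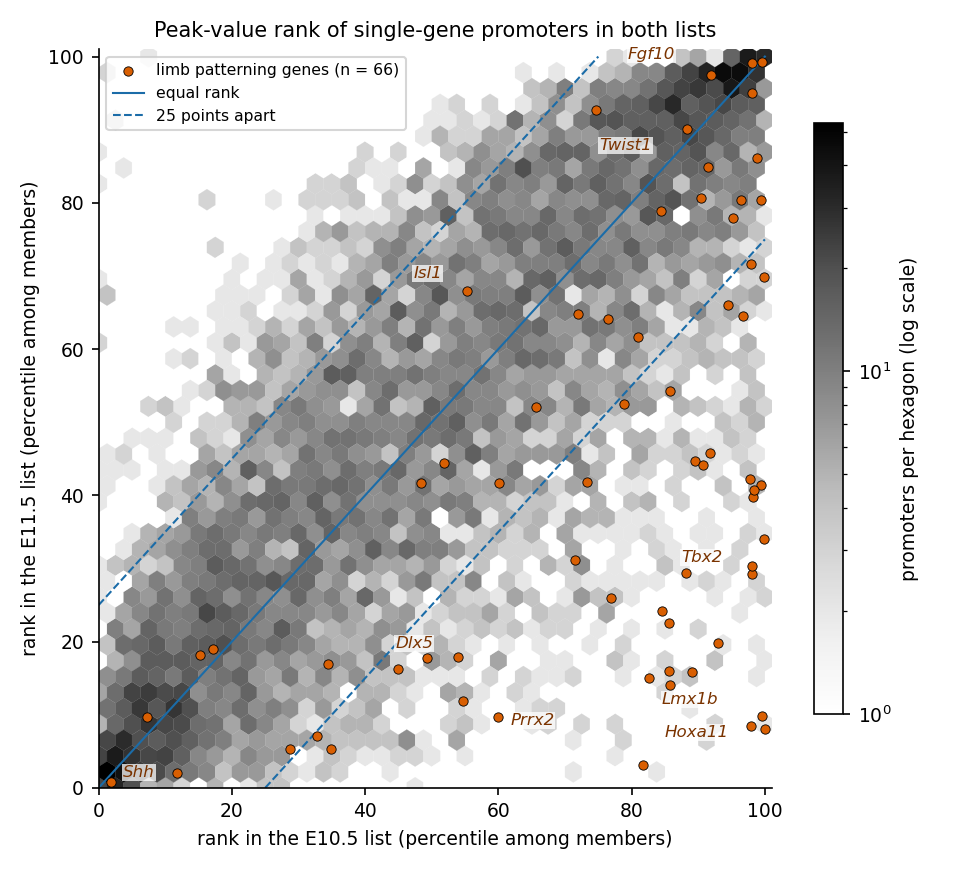
Rank of member promoters by signal, as a percentile among members, in the E10.5 list (x) and in the E11.5 list (y). Grey hexagons count all 10342 member peaks on a log colour scale, orange points are the 66 limb patterning genes, and 38 of those lie below the lower dashed line, which marks 25 points.

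The limb genes lay high in the E10.5 list, where a gene has more room to rank lower. Members were therefore split into quintiles by E10.5 rank. Over all member genes, the share lower by at least 25 points was 0 in the lowest quintile, then 3.13%, 12% and 17.8%, and 21.8% in the highest. In the highest quintile 27 of 40 limb genes ranked lower (67.5%), as did 21 of 29 homeobox genes (72.4%), 12 of 20 Notch and ephrin genes (60%) and 8 of 22 Wnt pathway genes (36.4%). None of the 12 Klf and Sp genes in that quintile did. Joined, the counts at the top were 22 of 40 for limb genes (55%) and 20 of 29 for homeobox genes (69.0%), beside 18.8% of all genes there.

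**Figure D4:**
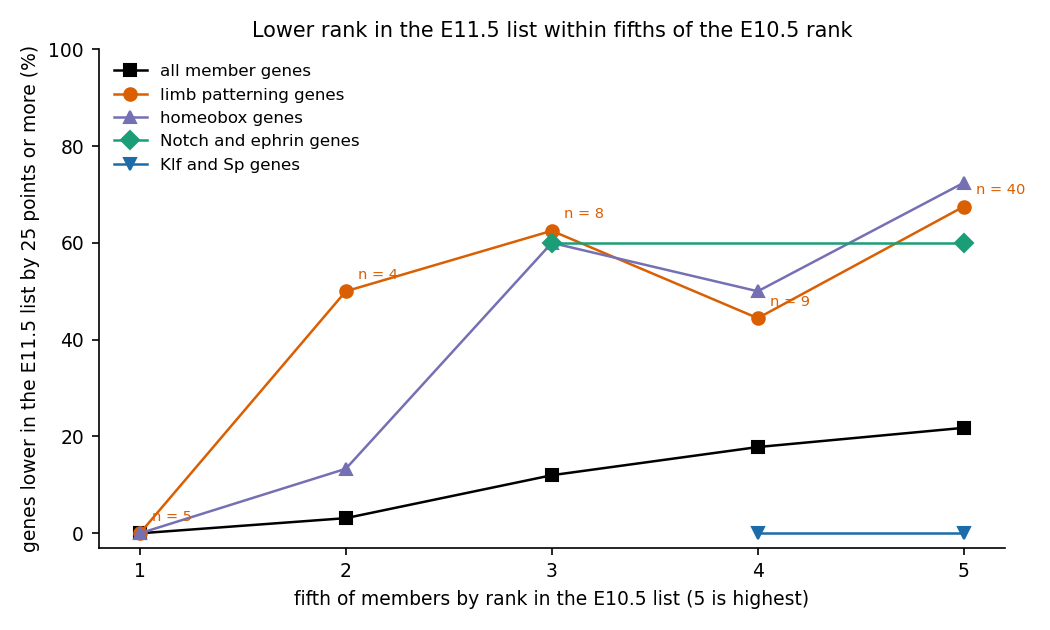
Share of genes (%) that ranked at least 25 points lower in the E11.5 list, by quintile of E10.5 rank (5 is highest), for all member genes and 4 classes, with points of fewer than 4 genes left out and the limb gene number beside each orange point. In quintile 5 the share is 21.8% of all genes, 67.5% of limb genes and 0 of the 12 Klf and Sp genes.

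Several other classes of developmental transcription factors, which share genes with the limb list, were described in the same way. Of 105 homeobox genes, whose products bind DNA through a homeodomain, 41 ranked lower (39.0%) and 2 higher. In this class Tgif1, a TALE homeobox repressor, kept its place with signals of 23315 and 11064 (ranks 99.6 and 99.2). Among 10 T-box genes, 6 ranked lower (60%, Wilson interval 31.3 to 83.2%). Sox genes, HMG-box factors, had 6 of 17 lower (35.3%), with Sox8 at −42.7 points and Sox12 at 0.0. Forkhead genes had 8 of 26 lower (30.8%), among them Foxf1 with 7681 and 431, while Foxo3 kept ranks of 99.6 and 99.3. Nuclear receptors had 8 of 28 lower (28.6%), among them Rara, a retinoic acid receptor, with 9110 and 863. Genes of bHLH factors had 10 of 58 lower (17.2%, Wilson interval 9.64 to 28.9%), an interval that includes the background of 11.2 percent. In the highest quintile of E10.5 rank, 3 of 9 forkhead genes (33.3%), 4 of 6 Sox genes (66.7%) and 5 of 10 nuclear receptors (50%) ranked lower. Of bHLH genes 6 of 24 (25%) and of T-box genes 3 of 4 (75%) did, beside 21.8% of all genes there. On signal per bp the forkhead share was 7.7% and the Sox share 11.8%, neither above the background of 11.9 percent, and nuclear receptors stood at 14.3% and bHLH genes at 18.97%, whereas T-box genes stood at 40% and homeobox genes at 19.05%.

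Several classes of ligands, receptors and matrix genes also had a larger share lower than the 11.2 percent of all genes. Among 30 Notch and ephrin genes, which signal between touching cells, 17 ranked lower (56.7%, Wilson interval 39.2 to 72.6%) and none higher by 25 points. Efna1, a membrane-anchored ephrin, had 17139 and 1140, whereas Jag1, a Notch ligand, had 18130 and 12504 and ranks of 98.9 and 99.6. Wnt pathway genes had 15 of 50 lower (30.0%), including Wnt11 with 21245 and 1059 and the co-receptor Lrp5 with 11669 and 579, and the related co-receptor Lrp6 stood 24.03 points higher with 5529 and 5098. FGF pathway genes had 9 of 32 lower (28.1%), with Fgfr3 at 10183 and 1955. BMP and TGF-beta genes had 8 of 46 lower (17.4%, Wilson interval 9.09 to 30.7%), with the BMP antagonist Nbl1 at 10437 and 448, and Hedgehog genes had 3 of 16 (18.8%, 6.59 to 43.0%). Both intervals include the background of 11.2 percent. Collagens, the fibrous proteins of the matrix, had 10 of 25 lower (40%), with Col26a1 at 9411 and 646 and the cartilage collagen gene Col2a1 at 19704 and 2804 (−50.05 points, or −27.4 joined). On signal per bp the shares lower were 20% for Notch and ephrin genes, 20% for Wnt, 12.5% for FGF, 21.7% for BMP and TGF-beta, 25% for Hedgehog genes and 32% for collagens. Of these, the FGF share was about that of all genes, 11.9 percent. In the highest quintile of E10.5 rank, 3 of 12 FGF genes (25%) and 5 of 20 BMP and TGF-beta genes (25%) ranked lower by total signal. Of collagens 6 of 9 (66.7%) and of Hedgehog genes 1 of 5 (20%) did, beside 21.8% of all genes there. In the fourth quintile 3 of 6 FGF genes and 1 of 4 BMP and TGF-beta genes did, beside 17.8%. In the third 3 of 3 and 2 of 11 did, beside 12%.

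**Figure D5:**
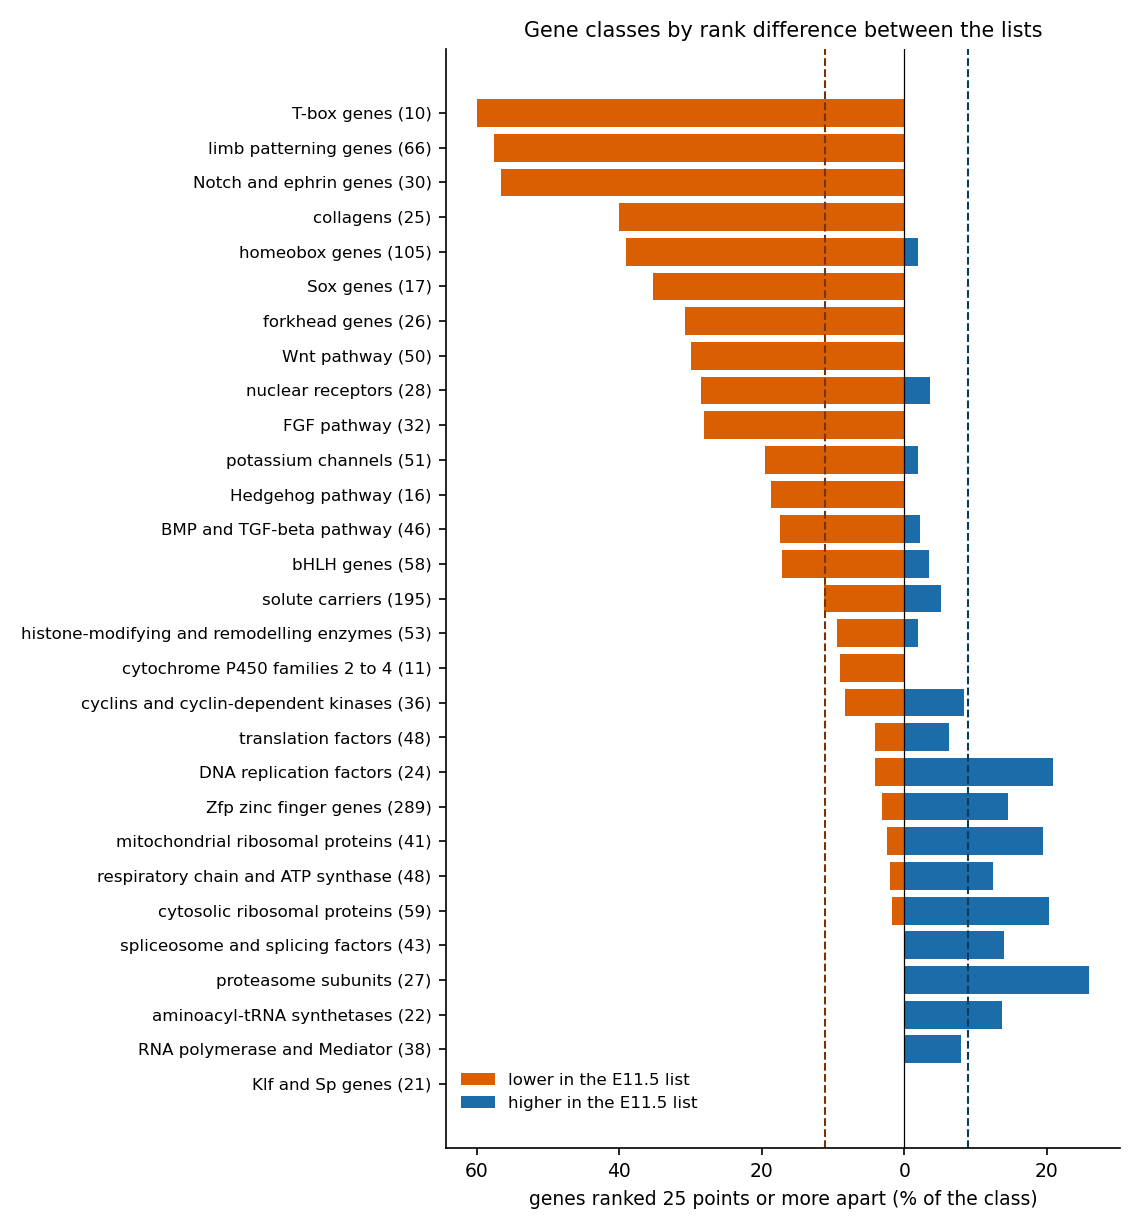
Share of the genes of each class (number of member genes in brackets) that ranked at least 25 points lower (orange, to the left) or higher (blue, to the right) in the E11.5 list, in % of the class. Dashed lines mark the shares over all member genes, 11.2 and 8.93 percent, and classes with under 10 member genes are left out.

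Some classes of genes that most cells need had a larger share ranked higher than the 8.93 percent of all genes. Of 59 cytosolic ribosomal protein genes, 12 ranked higher in the E11.5 list (20.3%, Wilson interval 12.04 to 32.3%) and 1 ranked lower, with a median difference of +13.4 points. Rps23 had a signal of 1951 in the E10.5 list and 4145 in the E11.5 list, and Rpl10a, the 1 lower gene, had 9320 and 3163. Mitochondrial ribosomal protein genes had 8 of 41 higher (19.5%), among them Mrps30 with 3341 and 5480. Proteasome subunits, which form the machine that degrades tagged proteins, had 7 of 27 higher (25.9%) and none lower by 25 points, and Psma1 had 3177 and 4432. DNA replication factors had 5 of 24 higher (20.8%), among them Gins1 with 2400 and 3502. On signal per bp the shares higher were 20.3% for cytosolic and 22% for mitochondrial ribosomal protein genes, 14.8% for the proteasome and 12.5% for replication factors, beside 11.2 percent of all genes, and 16.7% of the replication factors ranked lower. These classes started in the lower or middle ranks, where all genes have more room to stand higher. In the second quintile of E10.5 rank, 8 of 26 cytosolic ribosomal protein genes (30.8%) ranked higher, beside 17.2% of all genes there. In the third 1 of 13 (7.69%) did, beside 14.1%, and in the lowest 3 of 11 (27.3%), beside 10.3%. From the lowest quintile to the third, mitochondrial ribosomal protein genes had 3 of 15, 4 of 15 and 1 of 5 higher. Proteasome subunits had 2 of 9, 3 of 10 and 2 of 7, and replication factors 1 of 4, 1 of 3 and 3 of 12.

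Other broadly used classes stood nearer to the background in the share beyond 25 points by total signal. Translation factors had 3 of 48 higher (6.25%), RNA polymerase and Mediator subunits 3 of 38 (7.89%) and respiratory chain genes 6 of 48 (12.5%). Aminoacyl-tRNA synthetases had 3 of 22 higher (13.6%). Median differences were +10.2, +7.2, +8.7 and +11.0 points in that order, beside +1.3 over all member genes. The classes named next ran from −2.2 (histone-modifying and remodelling enzymes) to +7.8 (Zfp genes). Translation factors had a median E10.5 rank of 53.2, beside 35.0 for cytosolic ribosomal protein genes, and so less room to stand higher. Splicing factors had 6 of 43 higher (14.0%) and none lower by 25 points, and Hnrnpl, an RNA-binding protein gene, ranked at 98.8 and 98.3. Cyclins and their kinases had 3 of 36 on either side. Ccnd1, the G1 cyclin D1, ranked 52.5 points lower with 22742 and 2676, but 4.9 points lower with its peaks joined. Histone-modifying and remodelling enzymes had 5 of 53 lower (9.43%) and 1 higher. Zfp zinc finger genes, many of them repressors of transposable elements, had 42 of 289 higher (14.5%) and 9 lower. On signal per bp 9.7% of the Zfp genes, 22.9% of translation factors, 19.4% of cyclins and their kinases and none of the 38 polymerase and Mediator genes ranked higher, beside 11.2 percent of all genes.

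Klf and Sp genes, zinc finger factors that bind GC boxes, had no gene beyond 25 points in either direction. All 21 member genes lay within it, at a median rank of 83.0 in the E10.5 list and 94.4 in the E11.5 list. Klf10 had 22488 and 14598, Klf12 had 19370 and 13202 and Klf6 had 7612 and 8233. With 21 genes, a count of 0 leaves a share of up to 15.5% inside the Wilson interval, which includes the background shares.

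Chemoreceptor and keratin genes were nearly absent from the members. Of 1447 olfactory and vomeronasal receptor genes 4 had a member promoter, of 49 keratin genes 2, Krt8 and Krt18, and of 76 cytochrome P450 genes of families 2 to 4 there were 11. Solute carriers had 195 of 362 (53.9%) and potassium channels 51 of 92 (55.4%), beside 49.5% of all genes.

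Markers of the cell types in a limb bud checked what the lists hold. Of 9 mesenchyme markers 8 were members, with E10.5 ranks from 54.7 to 98.8, and the ninth, the forelimb factor Tbx5, had its promoter peak in the E10.5 list only. Of 10 markers of surface ectoderm and ridge 6 were members, with E10.5 ranks from 5.7 to 65.6. Krt5, Fgf8 and Wnt7a were in the E10.5 list only, and Trp63 had no promoter peak in it. Of 6 endothelial markers only Kdr was a member (ranks 33.5 and 38.5). Among 5 autosomal blood markers, Hba-a1 ranked at 1.2 and 15.1 and the blood factor Tal1 at 2.8 and 48.8, with signals of 845 and 2778, while Hbb-y, Ptprc and Runx1 had no promoter peak in the E10.5 list. Lbx1, of migrating muscle precursors, had 5340 and 391, and Myod1 had 2953 and 489, while Met, the receptor of hepatocyte growth factor, had 3414 and 2384 and stood 12.1 points higher. Pax3, Pax7 and Myf5 were in the E10.5 list only. Of 5 nerve and glia markers, Tubb3 (ranks 27.0 and 8.1) and Neurog2 (28.6 and 25.2) were members. All 5 cartilage markers were members and stood lower in the E11.5 list, between −6.9 points for Acan and −50.05 for Col2a1, or −27.4 for Col2a1 with its peaks joined. With joined peaks 2 of the 5 stood at least 25 points lower, and 3 without joining. The part of cell composition in the rank differences was not tested.

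The 12 genes that ranked lowest in the E11.5 list relative to the E10.5 list were Rbfox3, Hoxa11, Lmx1b, Hoxd12, Ngfr, Evx1, Dab2ip, Lrp5, Hoxa3, Nbl1, Hic1 and Flnc. Rbfox3, a neuronal splicing factor, had a peak of 5222 bp with a signal of 14365 at E10.5 (chr11:118906449-118911670) and, as the stronger of the 2 E11.5 peaks on it, one of 306 bp with 206 (−97.0 points). Ngfr, the low-affinity neurotrophin receptor, had 12159 and 479, and Evx1, a homeobox gene beside the HoxA cluster, had 9777 and 255. Dab2ip, a Ras GTPase-activating protein, had 10701 and 428, and Hic1, a zinc finger repressor, had 15157 and 839. Flnc, an actin cross-linking protein of muscle, had 10273 and 468. In 8 of the 12 the E10.5 peak lay over several E11.5 peaks, and joining them left differences between −71.6 and −92.1 points. Evx1, Dab2ip, Lrp5 and Nbl1 had 1 peak in each list. On signal per bp all 12 stood lower in the E11.5 list, between −4.12 points for Hic1 and −57.2 for Nbl1.

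The 12 genes with the opposite difference were Fam177a2, Fam177a, Gm36079, Gm2897, Naf1, Gm3248, Snx16, Gm51464, Zfp982, Rps23, Gabarapl1 and Eml5. Fam177a2 had a signal of 1178 in the E10.5 list and 5480 in the E11.5 list (+80.2 points), and Fam177a had 1160 and 5460 (+80.1). These 2 genes and the predicted Gm genes may have near-identical copies, and how reads that match several copies were treated is not given in the sources used here, so their values are uncertain. Among the others, Snx16, an endosomal sorting nexin, had 2323 and 4837 (+64.0), Gabarapl1, an autophagy protein, had 2634 and 4795 (+59.4) and Eml5, a microtubule-binding protein, had 2186 and 4229 (+58.5). Zfp982 had 3408 and 6230 (+60.2). No gene was checked for near-identical copies, so the same doubt may hold for Zfp982 and for other named genes. Naf1, an assembly factor of H/ACA ribonucleoproteins, had 2442 and 5017 (+64.1), but its E11.5 peak covered more than 1 E10.5 peak, and on signal per bp it stood 2.83 points lower (−2.83). Gm36079 stood at +28.4 with joined peaks.

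The strongest members of the E10.5 list were Prdm16 with a signal of 43956, Hoxa11 with 38499, Scx with 37238, Inka1 with 37192 and Tnrc18 with 37048. In the E11.5 list Prdm16, a histone methyltransferase-family factor, had 3301 (−41.8 points), and Scx, the bHLH factor of tendon precursors, had 1609 (−72.8). Inka1, a kinase inhibitor, kept 7083 (−6.4) and Tnrc18 kept 5554 (−14.3). Each of these E10.5 peaks overlapped several E11.5 peaks. With joined peaks the differences were −39.4 points for Prdm16, −52.2 for Scx, −0.62 for Inka1 and −0.51 for Tnrc18. The strongest members of the E11.5 list were predicted genes of 1 block on chromosome 6: Gm40367 with 44934 over 17099 bp, and Gm40364 and Gm36327, which shared 1 peak of 34961 over 13187 bp. The Gm40367 peak covered 10 E10.5 peaks and the shared peak covered 6, so these signals belong to merged peaks. With joined peaks Gm40367 had 35460 and 44934 (+0.05 points), and Gm40364 and Gm36327 stood at +0.15. These predicted genes may also have near-identical copies, so their values are uncertain. LOC108167694 with 23333 and Ing1 with 18283 followed. The genes that ranked highest in both lists at once were Ing1 (28316 and 18283), Sox12 (24846 and 14679), the AP-1 subunit Jun (24276 and 17686), the receptor-like Gpr108 (23246 and 16529) and the adhesion receptor Adgrl2 (24075 and 12681). Their peaks were 3951 to 4846 bp wide in both lists.

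Promoter sequence, which the rule did not use, was described for genes with an entry in the RefSeq table. Of all 10071 member genes 79.3% had one, under the 80% needed for a statement on all members, so such a check is void. Outside chromosome 18 the table covered 7988 of 9793 member genes (81.6%), and the values below are for these. The median CpG observed/expected ratio of the members was 0.76, beside 0.83 for genes that shared a promoter peak with a second gene and 0.17 for genes with no promoter peak in the E10.5 list. The median GC content was 61.7%, 62.0% and 46.0% in the same order. GGGCGG occurred in 67.9% of member promoters, 47.3% of all promoters of the table and 12.5% of those without an E10.5 peak. TATAAA occurred in 6.85% of member promoters, 13.5% of all and 26.7% of those without a peak.

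The ETS motif CCGGAAG was in 15.9% of member promoters (Wilson interval 15.1 to 16.7%), 25.5% of those shared with a second gene and 12.3% of all promoters of the table. It was in 26.4% of the promoters of genes that ranked higher in the E11.5 list (23.3 to 29.8%, 696 genes) and in 16.2% of those that differed by less than 25 points (15.3 to 17.1%, 6452 genes). The CRE core TGACGT was in 18.1% and 11.1% of the same groups. The ETS gap differed with the measure and with E10.5 rank. Among genes higher on signal per bp, ETS was in 20% (17.5 to 22.8%) and CRE in 14.5%, beside 15.9% and 11.4% of members. By total signal, the ETS shares of genes higher and genes within 25 points were 29.7% and 19.5% in the second quintile. They were 23.01% and 20.6% in the third, and 25.5% and 16.04% in the fourth. The share of these subgroups with an entry was not counted. By E10.5 rank, the ETS share was 20.9% in the second quintile, 19.6% in the third, 14.4% in the fourth and 8.28% in the highest. GGGCGG went from 63.3% to 78.2% over the same quintiles. In the lowest quintile 79.2% of genes had an entry, under 80%, so no share is given and no trend over all quintiles is stated. For the genes that ranked lower, 75.7% had an entry, which is under 80%, so the check is void for them and no share is given. A match is a description of letters and not a bound site.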

How the data were processed

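ATAC-seq peaks of wild-type mouse limbs were taken from 2 deposited lists, 1 per stage, each joining the 2 replicates of its stage, on mm10 per the file headers. The submitters' processing notes name cutadapt, Bowtie2, SAMtools, deepTools and Genrich, without role or version. Filters, any Tn5 shift, the treatment of reads with several matches and the way replicates were combined are not given in the sources used here. The deposited signal value is a total over the peak, with a smallest value just above 200 (200.002 and 200.006). The deposited score equals signal divided by width in 100% of peaks, scaled and capped, and served as a check only. The −log10 p values deposited by the authors were used in alternatives and to describe peaks. No q value was used, since that column holds -1.

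Start sites were the outer end, by strand, of genes in a RefSeq table of assembly GRCm38.p6. Strand came from the RefSeq promoter table for 16457 genes and from GENCODE M1 by symbol for 3907 (whose NCBIM37 coordinates were not used), and 301 genes had none. Both sources gave 44 different strands over 15748 genes. Overlaps, ranks, classes (symbol patterns and written lists) and motifs were computed with Python 3.11.15, pandas 2.3.3 and scipy 1.17.1. The choice of members and the ranking were tested on simulated data, with 1 peak on 1 peak and fixed widths in each list. Classes, motifs and joined peaks were not part of that test. The text names the 12 genes with the largest rank difference in each direction, the 5 strongest of each list, the edge cases, up to 4 genes of a class and any limb or marker gene. The genes highest in both lists were printed under the rule for sequences. No depth per sample is known. The members and lists were chosen with earlier results of these data known. A few named items are not reported here.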

Additional observations from a re-analysis of the deposited data

Results flagged for a closer look

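Single-gene promoters on chromosome X lay outside the autosomal rule, so they enter no comparison above. By the same distances and overlap, 395 of 1559 chromosome X peaks of the E10.5 list qualified (25.3%, 95% Wilson interval 23.2 to 27.6%), where a count of 0 would allow a share of up to 0.192%. On the autosomes 10342 of 97739 E10.5 peaks were members (10.6%). Why the shares differ was not tested.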

How the results depend on the processing

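The number of members ran from 8560 (overlap of at least 50% of both peaks) to 11573 (every start of the promoter table, an alternative chosen after seeing the data), within 1.5 times of 10342. The shares ranked higher and lower by 25 points, 9.41% and 11%, became 11.51% and 11.8% by signal per bp, 10.8% and 10.4% by −log10 p, 8.48% and 12.9% by width, 8.76% and 10.2% with E11.5 peaks summed, 7.82% and 9.14% with 1 peak on 1 peak, and 11.0% (10.99) and 11.7% with −log10 p of at least 5. With joined peaks, also added after seeing the data, they were 8.51% and 10.1%. Median CpG observed/expected moved from 0.76 to 0.77 with starts inside the peak. Of the named genes' rank differences under alternatives, 99 moved little, 34 moved more and 1 reversed: Naf1 by signal per bp (−2.83). The homeobox share lower was 28.9% with 1 peak on 1 peak and 19.05% per bp, and the Notch and ephrin share 37.5% and 20%. No paired analysis was possible because the 2 replicates of a stage share 1 peak list, which also kept a single replicate from being left out.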
